A study of Mus musculus with 6 samples.

Results

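The genes described here are 9 regulators of blood stem and progenitor cells, namely Kit, Flt3, Cd34, Gata2, Runx1, Meis1, Myb, Spi1 and Cebpa. They were taken by symbol from the deposited gene tables, where all 9 were among the 17060 genes listed in at least 1 culture. Lineage-negative BM cells, the fraction left after mature blood cells are depleted, were purified from wild-type mice and cultured for 48 hours in a medium that holds erythropoietin (EPO), the hormone that drives red cell formation. Both groups shared the genotype, the medium and the time, and differed in the agent. The controls received DMSO, the solvent, and the treated cultures received NUP-17d, a small-molecule inhibitor of the pleckstrin homology protein Plek2, at 10 μM. Each group had 3 cultures. Poly(A) RNA was sequenced, and whether the cultures came from separate mice is not given in the labels, so the p-values measure the spread between these cultures only.

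Blood formation starts from stem and progenitor cells that respond to growth factors through receptor tyrosine kinases, among them Kit and Flt3, and that carry the sialomucin Cd34 on their surface. A set of transcription factors holds these cells in the immature state or directs them to a lineage. Gata2, Runx1, Meis1 and Myb act in stem and early progenitor cells, while Spi1 (PU.1) and Cebpa direct cells to the granulocyte and macrophage lineages. In erythroid maturation Kit and Gata2 are turned down, and Gata1 takes over sites held by Gata2.

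The expected counts summed to between 20278433 and 20419018 in the DMSO cultures and between 20076409 and 20170197 in the NUP-17d cultures. Hemoglobin genes took 18.3% to 20.3% of the counts with DMSO and 11.8% to 13.1% with NUP-17d. The labels name the cells erythroblasts, and the hemoglobin share shows that the cultures held erythroid RNA. All 16 erythroid markers on the list passed the filter on low counts. So did every listed marker of neutrophils, macrophages, megakaryocytes, and lymphoid and dendritic cells, so passing the filter does not identify the cells. Levels are given below as CPM, the count a gene takes of the whole library on a common scale, after TMM, a scaling that corrects for a few very abundant genes taking unequal shares of the libraries, and log2 changes are NUP-17d minus DMSO.

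Changes in the 9 regulators were small and did not share a direction. Cebpa, Kit, Meis1 and Spi1 rose with NUP-17d, by 9.04% to 25.5%, and Runx1 fell by 18.0%. Gata2, Myb, Cd34 and Flt3 did not pass the test. The 5 calls out of 9 came from the quasi-likelihood test of edgeR, with p-values adjusted by Benjamini-Hochberg over all 12306 genes and a threshold of 0.05, and 35.3% of those genes were called. The 4 of 9 higher stood beside 16.4% of all genes called higher, and the 1 of 9 lower beside 18.9% called lower. All 9 regulators passed the filter on low counts. The median log2 change over the 9 regulators was 0.098, against 0.014 over all genes tested. In 7 of the 9 the groups did not overlap, which held for 46.0% of all genes tested, with 6 of the 9 above (22.8% of all genes) and 1 below (23.2%). The RNA came from whole cultures, so fewer cells of a type and less RNA per cell cannot be told apart.

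**Figure D1:**
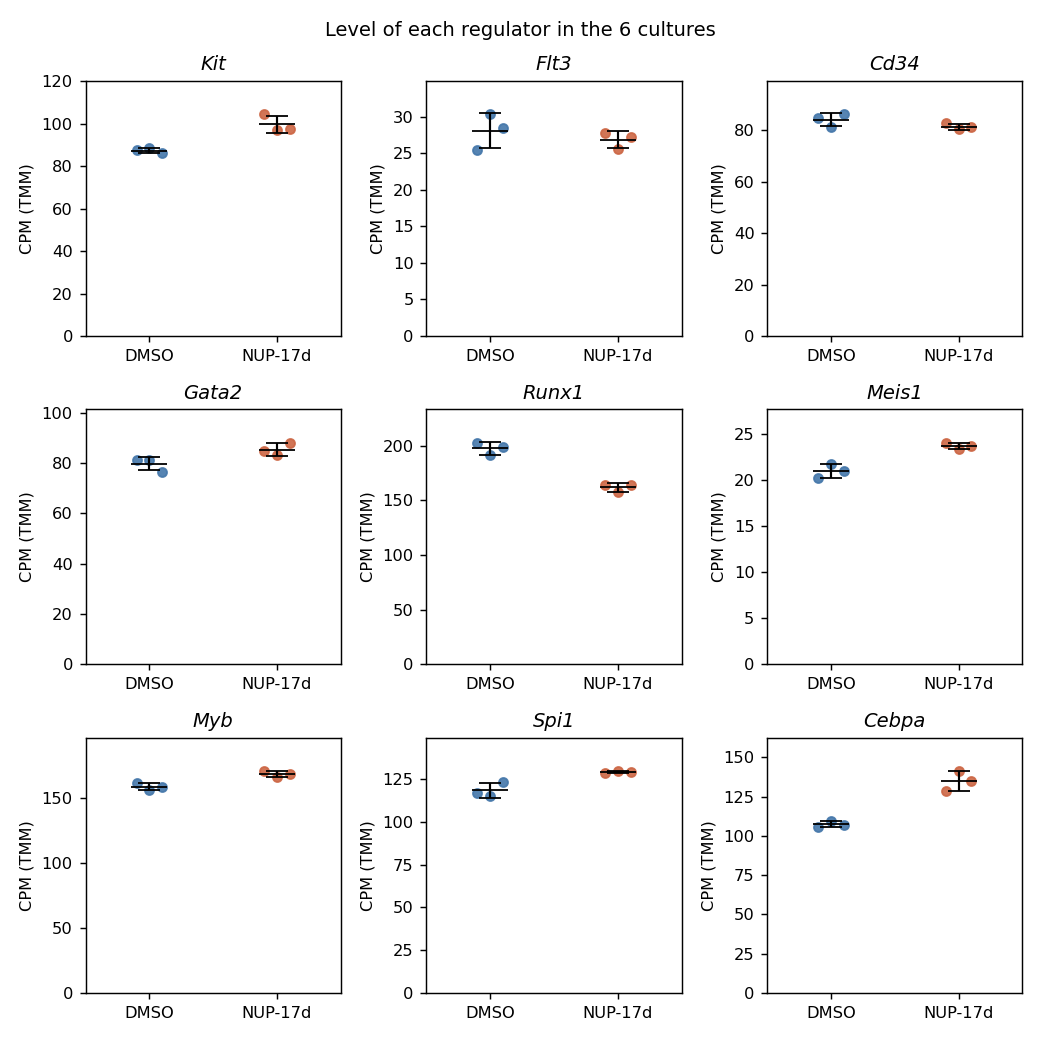
CPM after TMM (y axis, from 0) of the 9 regulators in each of the 3 DMSO and 3 NUP-17d cultures, 1 panel per gene, with points for cultures and bars for the mean and SD. The groups lie apart for Cebpa, Runx1, Kit, Meis1, Spi1, Gata2 and Myb, and overlap for Cd34 and Flt3.

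Kit, the receptor for stem cell factor, lies on chromosome 5 (chr5:75574987-75656722, plus strand, mm10). Its level was 87.4, 88.5 and 86.1 CPM in the DMSO cultures and 104, 96.8 and 97.6 in the NUP-17d cultures. Every NUP-17d culture was above every DMSO culture, with the first NUP-17d culture the highest. The log2 change was 0.19 (SE 0.040, adjusted p = 0.000413 by edgeR's quasi-likelihood test). Kit was called in each of the 14 other fits tried.

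Flt3, the receptor for Flt3 ligand on multipotent and lymphoid-primed progenitors (chr5:147330741-147400489, minus strand), was at 25.5, 30.4 and 28.5 CPM with DMSO and at 27.9, 25.6 and 27.3 with NUP-17d. The groups overlapped, and the log2 difference of -0.065 had a 95% interval from -0.19 to 0.060 (adjusted p = 0.436, edgeR). Cd34 (chr1:194938821-194961292, plus strand) was at 84.7, 81.3 and 86.2 CPM with DMSO and at 82.7, 80.3 and 81.2 with NUP-17d. Here too the groups overlapped. The log2 difference of -0.046 had an interval from -0.13 to 0.034 (adjusted p = 0.381, edgeR), so both intervals hold no fall of more than 0.19 and no rise of more than 0.060 on this scale. Scaled by library totals alone, both differences turned positive, to 0.20 for Flt3 and 0.22 for Cd34.

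Runx1, the DNA-binding subunit of core binding factor, was the 1 regulator that fell (chr16:92601466-92826074, minus strand). It was at 203, 191 and 199 CPM with DMSO and at 164, 157 and 164 with NUP-17d. All NUP-17d cultures were below all DMSO cultures, and the gap between the groups was wider than the range within either. The log2 change was -0.29 (SE 0.036, adjusted p = 3.75e-07, edgeR). The call was lost where libraries were scaled by their totals alone (-0.019, adjusted p = 0.630).

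Gata2, a zinc finger factor of stem cells, early erythroid progenitors and mast cells (chr6:88193891-88207032, plus strand), was at 81.4, 81.2 and 76.7 CPM with DMSO and at 85.0, 83.1 and 88.1 with NUP-17d. The NUP-17d cultures were all the higher ones, but the log2 difference of 0.098 (95% interval 0.015 to 0.18) did not pass the adjusted test (adjusted p = 0.0605, edgeR). It passed without the second NUP-17d culture (0.12, adjusted p = 0.0469, edgeR) and under upper-quartile scaling (0.12, adjusted p = 0.0198). Gata2 missed in DESeq2 (0.094, adjusted p = 0.202) and without any other single culture. The weakest of these was without the third DMSO culture (0.069, adjusted p = 0.259, edgeR).

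Myb, a factor that keeps progenitors dividing (chr10:21124930-21160984, minus strand), was at 161, 156 and 158 CPM with DMSO and at 170, 166 and 168 with NUP-17d. Like Gata2, it had no overlap between the groups and missed the adjusted test, with a log2 difference of 0.086 (95% interval 0.015 to 0.16, adjusted p = 0.0548, edgeR). It passed without the first DMSO culture (0.099, adjusted p = 0.0499, edgeR) and under upper-quartile scaling (0.11, adjusted p = 0.0137). Myb missed in DESeq2 (0.081, adjusted p = 0.128) and without any other single culture. The weakest of these was without the second DMSO culture (0.075, adjusted p = 0.183, edgeR).

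Meis1, a homeodomain partner of the HOX and PBX proteins in stem cells (chr11:18880428-19019651, minus strand), had the lowest CPM of the 9. It was at 20.2, 21.7 and 21.0 with DMSO and at 24.1, 23.4 and 23.7 with NUP-17d. The groups did not overlap, and the log2 change was 0.18 (SE 0.058, adjusted p = 0.0188, edgeR). That call did not hold without the first DMSO culture (0.15, adjusted p = 0.0846), without the first NUP-17d culture (0.17, adjusted p = 0.0523) or in DESeq2 (0.17, adjusted p = 0.150).

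The myeloid factors Spi1 and Cebpa both rose. Spi1, an ETS factor needed for macrophages and B cells (chr2:91082374-91115759, plus strand), was at 117, 115 and 123 CPM with DMSO and at 129, 130 and 129 with NUP-17d. Its groups did not overlap, and the log2 change was 0.12 (SE 0.037, adjusted p = 0.00952, edgeR). Without the second DMSO culture it was 0.10 and no longer called (adjusted p = 0.0714, edgeR).

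Cebpa, a leucine zipper factor required for granulocytes, had the lowest p-value of the 9 regulators (chr7:35119293-35121928, plus strand). It was at 106, 109 and 107 CPM with DMSO and at 129, 141 and 135 with NUP-17d. The NUP-17d cultures lay far above the tight DMSO group. The log2 change was 0.33 (SE 0.039, adjusted p = 1.56e-07, edgeR), a 1.26-fold rise that was called in each of the 14 other fits. In the order of log2 changes over all genes tested, Cebpa stood at the 91.3 percentile and Runx1 at the 10.1 percentile.

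How the libraries were scaled to each other moved all 9 values together. With library totals alone, 68.7% of all genes tested were called higher and 5.34% lower, 8 of the 9 regulators were called higher and none lower, and the median log2 change was 0.28 over all genes and 0.37 over the 9. A change of scaling adds nearly the same amount to the log2 change of every gene. Under both scalings the regulators therefore had to hold the same places relative to the all-gene median. Cebpa stood at 0.31 above it, Kit at 0.18, Meis1 at 0.16, Spi1 at 0.11, Gata2 at 0.084 and Myb at 0.072 with TMM. Cd34 stood at -0.060, Flt3 at -0.079 and Runx1 at -0.30 relative to that median. The summed share of all counts taken by the 9 regulators was 0.0785% to 0.0814% with DMSO and 0.0988% to 0.101% with NUP-17d. The hemoglobin share given above moved with that share in the other direction, and only relative abundance can be read from these tables.

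**Figure D2:**
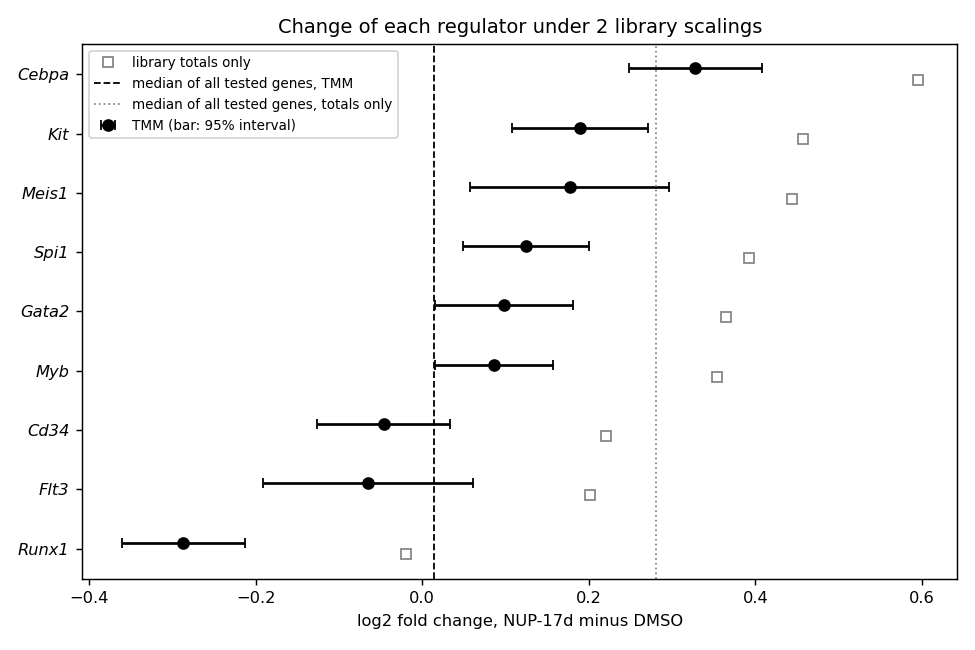
Log2 change, NUP-17d minus DMSO (x axis), of each of the 9 regulators (y axis) under TMM and under library totals alone, with the 95% interval as a bar for TMM and the median of all genes tested under each scaling as a vertical line. Cebpa stands at 0.33 with TMM and 0.59 with totals alone, and Runx1 at -0.29 and -0.019.

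Within a library the levels of different genes can be compared per transcript length, as FPKM. The deposited FPKM are scaled by library size without TMM, so the FPKM of a gene are not compared between the groups here. Spi1 was the most abundant regulator in both groups, with a mean of 73.3 FPKM with DMSO and 96.5 FPKM with NUP-17d. With DMSO it was followed by Myb (40.9 FPKM), Cebpa (36.6), Cd34 (29.8), Runx1 (29.4), Gata2 (22.4), Kit (15.0), Flt3 (6.90) and Meis1 (5.51). Only Cd34 and Runx1 overlapped among these neighbours. Myb exceeded Cebpa in all 3 DMSO cultures, while Cebpa exceeded Myb in all 3 NUP-17d cultures, with means of 55.4 and 52.3 FPKM. In the first NUP-17d culture the margin was slight, with Cebpa at 53.25 and Myb at 53.18 FPKM. The order also rests on the scaling by length. By CPM, Myb stood above Cebpa in every NUP-17d culture (166 to 170 against 129 to 141). With NUP-17d the ranges of Gata2 (28.9 FPKM) and Runx1 (28.7 FPKM) overlapped, as did those of Flt3 (7.95 FPKM) and Meis1 (7.51 FPKM).

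Ratios of 2 genes within a library do not depend on the scaling between libraries. Gata1, the erythroid GATA factor, fell by 0.33 on the log2 scale (adjusted p = 1.65e-08, edgeR) with TMM and by 0.067 with library totals alone, where the call was lost (adjusted p = 0.0842, edgeR). The balance between the progenitor factors and Gata1 was compared within each library. The Gata2 to Gata1 ratio of FPKM was 0.190, 0.194 and 0.185 with DMSO and 0.253, 0.255 and 0.258 with NUP-17d, a 1.35-fold rise with no overlap. The Spi1 to Gata1 ratio was 0.602, 0.606 and 0.655 with DMSO and 0.850, 0.882 and 0.828 with NUP-17d, a 1.38-fold rise with no overlap. Both gave p = 0.1 in a 2-sided exact permutation test over the cultures, the smallest p that 3 against 3 allows. With TMM, Gata1 stood at the 8.30 percentile of log2 changes over all genes tested. Most genes therefore rose relative to Gata1, and such a rise was not particular to Gata2 and Spi1. The ratio of Cebpa to Runx1, a pair chosen after their values were seen, was 1.19, 1.30 and 1.23 with DMSO and 1.83, 2.08 and 1.89 with NUP-17d, and is given as a description.

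**Figure D3:**
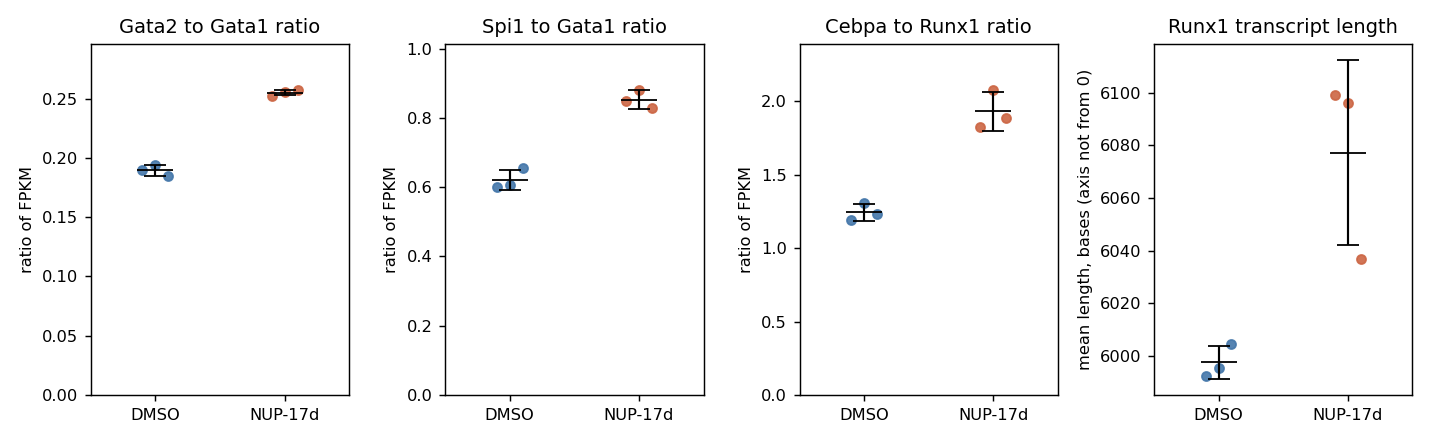
Ratios of FPKM within each culture (Gata2 to Gata1, Spi1 to Gata1 and Cebpa to Runx1) and the mean Runx1 transcript length in bases, by group, with points for cultures and bars for the mean and SD. In each panel the 3 NUP-17d cultures lie above the 3 DMSO cultures, and the y axis of the length panel does not start at 0.

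The genes around the regulators were read from lists, all adjusted over the whole table, and each list's count is given with TMM and with library totals alone. Each count is to be read beside the share of all genes tested. With TMM, 16.4% of all genes were called higher and 18.9% lower. The shares were 68.7% higher and 5.34% lower with library totals alone. Of the ligands and adaptors that work with Kit and Flt3, 2 of the 14 tested rose, 1 fell and 11 did not pass, with a median log2 change of 0.029. With library totals alone 12 rose and 0 fell, and the median was 0.30. The Src-family kinase Fyn rose from 31.2 ± 1.56 to 39.3 ± 1.74 CPM (SD, n = 3 each). The docking protein Gab2 rose from 32.9 ± 1.41 to 39.9 ± 2.39, and the adaptor Dok1, which dampens receptor signalling, fell from 151 ± 5.05 to 123 ± 6.17. The Dok1 call was lost with library totals alone. Kitl, the ligand of Kit, was below the filter with 0 to 5 counts in each culture.

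Among the partners of the transcription factors, 9 of the 17 tested fell, 2 rose and 6 did not pass, with a median log2 change of -0.17. With library totals alone 4 fell and 9 rose, and the median was 0.096. Jun, a partner of Spi1 and Cebpa, fell from 287 ± 12.2 to 194 ± 2.09 CPM, a log2 change of -0.56. Lyl1 fell from 162 ± 3.38 to 109 ± 5.12 and Tal1 from 463 ± 18.6 to 348 ± 5.59. Both are helix-loop-helix proteins that bind DNA in complexes with Gata factors. Lmo2, the bridging protein of the same complexes, was named after its values were seen and fell from 438 ± 20.4 to 332 ± 5.35 CPM. Several of these partners, Gata1, Tal1, Lmo2 and Klf1 among them, are also expressed in erythroid cells, whose markers are given below. Zfpm1 and Ldb1 of the same list did not pass, at log2 differences of -0.037 and 0.0096 (adjusted p = 0.489 and 0.871, edgeR). Klf1, Zfpm1 and Ldb1 were named after their values were seen. The part of erythroid cells in the changes of this list was not tested.

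Of the relatives of the regulators, 2 of the 14 tested rose, 3 fell and 9 did not pass, with a median of -0.0044. Scaled by totals alone, 8 rose and 1 fell, and the median was 0.26. Cebpg, a C/EBP protein without a classical activation domain, fell from 165 ± 2.54 to 126 ± 2.78 CPM (log2 -0.40) while Cebpa rose. Mybl2, the cell cycle member of the Myb family, fell from 78.8 ± 1.09 to 64.0 ± 3.39, and the call was lost with library totals alone. Podxl, a sialomucin of the Cd34 family, fell from 117 ± 5.02 to 98.3 ± 3.69, and with library totals alone its difference turned to 0.019.

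Of 25 other stem and progenitor genes tested, 10 rose, 3 fell and 12 did not pass, with a median of 0.14. With library totals alone 22 rose and 0 fell, and the median was 0.40. With TMM the count fell to 8 (7 higher, 1 lower) without the first DMSO culture and in DESeq2 it was 7 (5 higher, 2 lower). Tek, the angiopoietin receptor found on stem cells and endothelium, had the lowest p-value of this list and rose from 7.51 ± 0.573 to 14.9 ± 0.284 CPM, a log2 change of 0.99 (SE 0.083, adjusted p = 2.38e-10, edgeR). Cd93, a lectin-like surface protein of early progenitors and myeloid cells, rose from 245 ± 4.32 to 323 ± 18.8. Mycn, a Myc-family factor of progenitors, rose from 13.0 ± 0.401 to 17.7 ± 0.841.

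**Figure D4:**
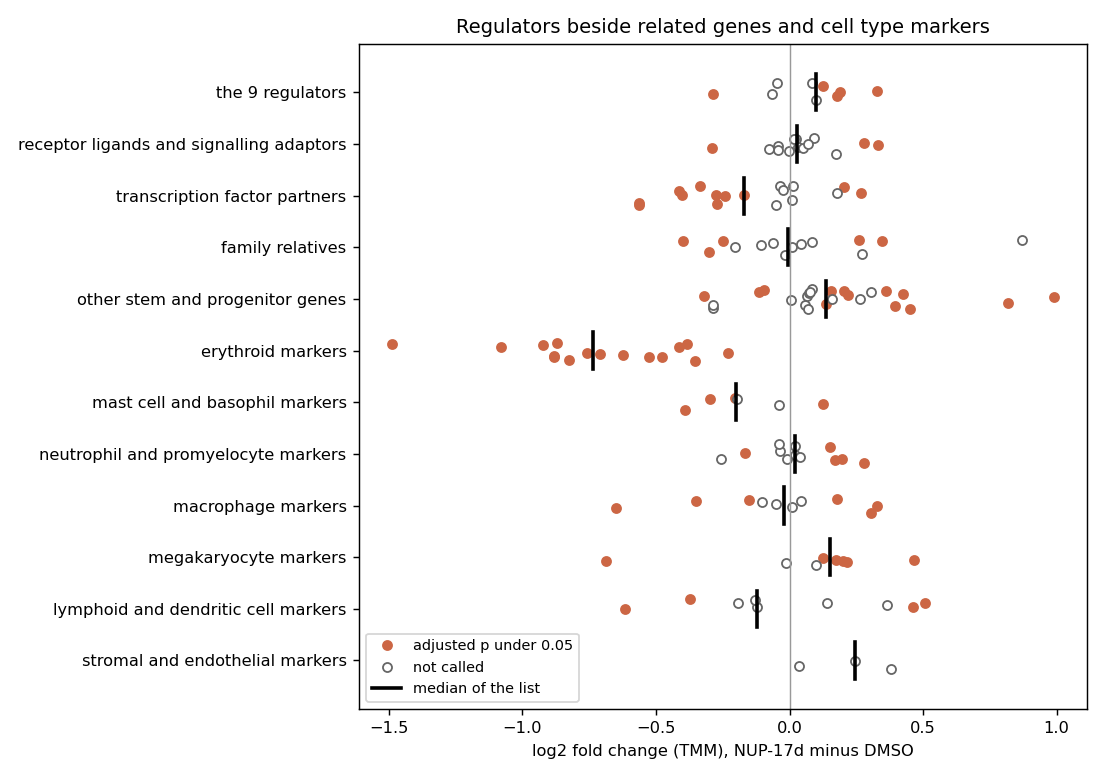
Log2 change, NUP-17d minus DMSO with TMM (x axis), of each tested gene in the lists of regulators, partners, relatives and cell type markers (y axis), with a point per gene, filled where the adjusted p was under 0.05, and a bar at each list's median. The erythroid markers have a median of -0.73, against 0.098 for the 9 regulators.

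Markers of the cell types that could share these genes moved as well. Their counts, too, are to be read beside the shares of all genes tested: 16.4% higher and 18.9% lower with TMM, and 68.7% and 5.34% with library totals alone. All 16 erythroid markers fell with TMM, and 15 with library totals alone, with a median log2 change of -0.73 (TMM) and a summed level of 221895 to 256055 CPM with DMSO and 123292 to 137802 with NUP-17d. Alas2, the first enzyme of heme synthesis in erythroid cells, fell from 4441 ± 164 to 2625 ± 103 CPM. Mast cells and basophils also use Kit and Gata2. Of their 10 markers 6 were tested, 3 fell and 1 rose with TMM, while with library totals alone 2 rose and 0 fell. The 1 rise, of the mast cell protease Cpa3, named after its values were seen, was 0.13 on the log2 scale and was lost in DESeq2 and without the first or second DMSO or the second or the third NUP-17d culture. Its log2 change ranged from 0.086 to 0.40 over the 14 other fits. Mcpt4 and Tpsab1 were listed in no culture, and the summed level was 234 to 251 with DMSO and 207 to 214 with NUP-17d. Neutrophil and promyelocyte markers, which go with Cebpa, summed to 4253 to 4413 with DMSO and 4392 to 4665 with NUP-17d, overlapping. Of these 12, 4 rose and 1 fell with TMM, while 10 rose and 0 fell with library totals alone.

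Macrophage markers, which go with Spi1, summed to 2936 to 3178 CPM with DMSO and 3281 to 3586 with NUP-17d. The sum was higher with NUP-17d, but the median log2 change of these markers was -0.021 with TMM. Of the 10, 3 rose, among them Cd68 and Lyz2, and 3 fell, among them Cd14. Without the first NUP-17d culture 3 rose and none fell, and with library totals alone 6 rose and 0 fell, Cd14 being at -0.083 (adjusted p = 0.464, edgeR). Megakaryocyte markers, whose cells use Runx1, Gata2 and Meis1, summed to 453 to 500 with DMSO and 522 to 542 with NUP-17d, and 5 of 8 rose, Gp1bb from 18.4 ± 0.723 to 25.4 ± 0.540, and 1 fell, Gp6 from 4.60 ± 0.0573 to 2.85 ± 0.158. Scaled by totals alone, 7 rose and 1 fell. Lymphoid and dendritic cell markers summed to 803 to 831 with DMSO and 551 to 618 with NUP-17d, and 2 of 9 rose and 2 fell (3 and 1 with library totals alone). In that list Cd74 alone accounted for most of the sum and fell from 751 ± 13.1 to 491 ± 33.7, while Il7r rose from 29.0 ± 1.33 to 41.2 ± 2.74 and Siglech rose from 22.0 ± 1.79 to 30.4 ± 1.07. Stromal and endothelial markers summed to 43.2 to 45.6 and 44.6 to 47.0, with 0 of 3 called (2 higher with library totals alone), and Cdh5 and Cxcl12 below the filter. The part of any of these markers in the changes of the 9 regulators was not tested.

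Runx1 has 2 annotated promoters, far apart on the minus strand. The 250 bases before both of its starts are shown for Runx1, the regulator that fell, and for Cebpa and Kit, the pair with the lowest p-values among those that rose. Kit has a further annotated start, a few bases on, whose window is not printed. They were taken from RefSeq promoters on GRCm38.p6 and written 5′ to 3′ on the gene's strand. Capitals mark letters that match, on either strand and with N for any base, 1 of 6 short motifs. These were GATAA for the GATA factors, TGTGGT for the RUNX factors, GAGGAA for the ETS factors such as Spi1, AACNG for the MYB factors, TTGCNNAA for the C/EBP factors and TGACAG for the MEIS factors.
Runx1 distal, chr16:92826075-92826324: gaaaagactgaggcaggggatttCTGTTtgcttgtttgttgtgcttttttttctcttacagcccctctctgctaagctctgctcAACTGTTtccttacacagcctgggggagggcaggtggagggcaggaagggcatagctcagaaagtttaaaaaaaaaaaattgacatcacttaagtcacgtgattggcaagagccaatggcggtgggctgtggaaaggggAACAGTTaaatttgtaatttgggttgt
Runx1 proximal, chr16:92697330-92697579: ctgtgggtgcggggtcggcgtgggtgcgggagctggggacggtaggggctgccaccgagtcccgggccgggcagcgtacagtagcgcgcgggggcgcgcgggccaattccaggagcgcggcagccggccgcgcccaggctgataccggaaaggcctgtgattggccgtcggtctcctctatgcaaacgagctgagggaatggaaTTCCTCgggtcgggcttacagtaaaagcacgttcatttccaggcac
Cebpa, chr7:35119043-35119292: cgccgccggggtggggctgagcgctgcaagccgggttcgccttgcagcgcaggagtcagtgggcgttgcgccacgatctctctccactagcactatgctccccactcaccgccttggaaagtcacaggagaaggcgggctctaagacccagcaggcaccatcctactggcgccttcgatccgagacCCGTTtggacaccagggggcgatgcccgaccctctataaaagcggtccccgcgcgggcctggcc
Kit, chr5:75574737-75574986: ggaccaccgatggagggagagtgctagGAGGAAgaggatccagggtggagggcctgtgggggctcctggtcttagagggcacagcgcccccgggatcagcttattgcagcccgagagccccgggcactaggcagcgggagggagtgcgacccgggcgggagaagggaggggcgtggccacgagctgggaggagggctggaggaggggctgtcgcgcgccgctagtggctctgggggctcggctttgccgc

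These promoter windows differ in composition. The distal Runx1 window was 45.6% G and C with 2 CpG dinucleotides and held 5 AACNG matches, of which the first stands alone and the others are pairs that overlap on opposite strands. The proximal one was 67.6% G and C with 27 CpG dinucleotides and held 1 GAGGAA match. The Kit window held 1 GAGGAA match and the Cebpa window 1 AACNG match. Over the 11 promoters of 8 regulators (Spi1 was not matched), AACNG was found in 6, against 74.2% of all 32851 promoters, GAGGAA in 3, against 23.3% (in the windows of both Kit starts, which overlap and hold the same stretch, and in that of proximal Runx1), and TGTGGT in 1, against 14.0%. The motifs of the GATA, C/EBP and MEIS factors were found in 0 of the 11, against 22.6%, 9.56% and 15.9% of all promoters. A match is a stretch of letters and not a bound site, and no binding was measured here.

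The deposited tables also give each gene's mean transcript length per culture, which shifts when the mix of isoforms does. For Runx1 it was 5993, 5996 and 6005 bases with DMSO and 6099, 6096 and 6037 bases with NUP-17d. The NUP-17d cultures were all longer, by 79.6 bases in the mean (p = 0.1 in a 2-sided exact permutation test, the smallest possible), in a comparison made after these values were seen. Of the 4611 genes with more than 1 length value, 11.4% had groups that did not overlap. The Runx1 change was 1.33% of its length, and 12.0% of these genes had a change as large or larger in either direction. With any 1 of the 6 cultures left out the Runx1 difference was between 68.7 and 99.9 bases. The tables do not say which Runx1 isoforms the counts went to.

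The genes whose 6 values were nearest to those of Cebpa, by Euclidean distance of centred log2 CPM over 9764 candidates whose counts averaged 100 or more, were Irf2bp2 (distance 0.0457), Ctsd (0.0524) and Cmtm7 (0.0551). Their log2 changes were 0.33, 0.35 and 0.32, against 0.33 for Cebpa. Nearness here largely means a like change between the groups, and shared regulation was not tested. Among the regulators' annotated exons, antisense genes overlap 148 bases of Cd34, 559 of Myb, 106 of Runx1 and 51 of Cebpa, and 1925 of Meis1 are shared with 2 other genes, 1 of them on the same strand. The study's methods name a stranded Illumina library kit while the labels describe a DNBseq library with no word on strand, and the strand use of the counting is not given in the sources used here, so reads of these stretches could come from either gene.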

How the data were processed

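RNA-Seq tables of 3 DMSO and 3 NUP-17d cultures, grouped and numbered by the labels, were used. Each culture has 1 table deposited by the authors, who gave expected counts, that is, reads estimated per gene and not normalized. The authors' FPKM values are scaled by transcript length, which they also gave, and by library size. A gene left out of a table was taken as 0. The submitters' processing notes name mm10; aligner, counting program and strand setting are not given in the sources used here.

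Expected counts were rounded, filtered by filterByExpr (minimum count 10), scaled by TMM and tested with edgeR 4.0.16 (glmQLFit, glmQLFTest) in R 4.3.3, with Benjamini-Hochberg adjustment at 0.05 over all genes tested. Intervals are 95% per gene, without adjustment. Ratios used FPKM and 2-sided exact permutation tests. Alternatives used DESeq2 1.42.0, limma 3.58.1 on log2 of the deposited FPKM plus a pseudocount of 1 or 0.1, other scalings, no filter, a replicate block and each culture left out. The edgeR step was tested on simulated data.

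The 9 regulators and the lists were chosen with earlier results of these data known. Named are all 9 regulators, up to 3 genes per list with the lowest p-values, and the 3 genes nearest to the regulator with the lowest p-value; 1 gene that the rule names is not reported here. Coordinates and promoters come from RefSeq GRCm38.p6, and exon overlaps from the GENCODE annotation.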

Additional observations from a re-analysis of the deposited data

How the results depend on the processing

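With library totals alone 9115 genes were called (8458 higher, 657 lower), against 4346 with TMM (2019 higher, 2327 lower), and limma called 9059 on log2(FPKM + 1) and 9038 on log2(FPKM + 0.1). The deposited FPKM that limma used are scaled by library size without TMM. These 3 fits therefore share that scaling and are not independent checks of each other. Of the 9 regulators, 8 were called in each of the 3 fits, all higher. There Cd34 turned to 0.22, 0.22 and 0.23 and Flt3 to 0.20, 0.18 and 0.21, and Runx1 was not called, at -0.019, -0.034 and -0.035. DESeq2 called 2971 genes (2961 shared with edgeR) and 4 regulators, without Meis1, and upper-quartile scaling called 7. Leaving out 1 culture gave 3713 to 4008 genes and 4 to 6 regulators. The log2 ratios ranged from 0.41 to 0.45 for Gata2 to Gata1, from 0.44 to 0.50 for Spi1 to Gata1 and from 0.58 to 0.67 for Cebpa to Runx1 when 1 culture was left out.

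Deviations from the group means were not visibly shared by same-numbered cultures (r = 0.0335, -0.0210 and -0.0324 across genes, against -0.0551 to 0.0828 for different numbers). With 3 cultures a group, this cannot tell whether same-numbered cultures were paired. With the replicate block 4543 genes were called, 4329 of them shared, and 6 regulators, Myb being added (adjusted p = 0.0393, edgeR). Under the block the ratios can reach no p below 0.25. With 3 cultures a group, small differences such as those of Flt3 and Cd34 are bounded only by their intervals, and only under TMM. With library totals alone Flt3 stood at 0.20 and Cd34 at 0.22, both outside those intervals.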
